A study of Mus musculus with 2 samples.

Results

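The genes described here form the route by which hepatocytes read body iron and set the hormone hepcidin. They are Hjv, Hfe, Tfr2, Tmprss6, Bmp6, Id1, Smad6, Smad7, Hamp and Hamp2. They were taken by name, with every probe set that the array's platform annotation gives to a single one of these genes. That gave 16 probe sets of 10 genes, out of 45101 probe sets on the array and 18193 genes with a single-gene probe set. The question is what happens along this route in liver when miR-122, a microRNA abundant in hepatocytes, is blocked, since Hjv (formerly Hfe2) is a reported miR-122 target.

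The treated mice received antagomir-122, a chemically modified oligonucleotide complementary to miR-122. The control mice received mm-antagomir-122, which the labels call a scrambled antagomir122. Both groups were given 80 mg/kg body weight per day on 3 days, and livers were taken 24 h after the last dose. RNA of 3 livers was pooled per group and measured on 1 single-colour array, so there are 2 arrays in all. Strain, sex and age of the mice are not given in the sources used here. With 1 array per group there is no replicate error for any difference below, no test between the groups was possible, and no p-value is given.

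In the textbook scheme, BMP6 made by liver endothelial cells binds BMP receptors on hepatocytes, and hemojuvelin (the Hjv product), a membrane-anchored BMP co-receptor, strengthens that signal. Receptor-activated SMAD proteins then switch on Hamp, which encodes hepcidin, together with Id1, Smad6 and Smad7. Hepcidin is secreted and lowers iron export by degrading ferroportin. HFE and transferrin receptor 2 feed the level of iron-loaded transferrin into the same route, and the protease TMPRSS6 dampens it by cleaving hemojuvelin. Inflammation adds a second input through interleukin 6 and STAT3.

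Hepcidin promoters are where both inputs meet, and the 2 mouse hepcidin genes are shown here because their transcripts end the route. RefSeq promoter windows (GRCm38.p6) were held for 6 of the 10 genes. The 150 bases before the annotated start of each hepcidin gene are printed below, both on the minus strand, from chr7:30944030-30944179 for Hamp and chr7:30924182-30924331 for Hamp2. Capitals mark matches to GGCGCC, the core of the BMP-responsive element, or to TTCNNNGAA, a STAT element, searched on both strands.
Hamp: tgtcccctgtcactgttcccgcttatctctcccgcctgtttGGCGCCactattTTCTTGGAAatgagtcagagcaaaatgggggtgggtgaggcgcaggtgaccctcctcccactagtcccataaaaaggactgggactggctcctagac
Hamp2: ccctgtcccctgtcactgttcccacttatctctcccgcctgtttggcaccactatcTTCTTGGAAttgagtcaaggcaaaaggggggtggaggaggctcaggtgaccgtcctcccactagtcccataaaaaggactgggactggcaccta

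Over the 250 bases before each start, the Hamp and Hamp2 windows matched at 227 of 247 aligned bases (91.9%). The Hamp window held GGCGCC from 109 to 104 bases before the start, and the aligned Hamp2 bases differed by G4A, counted from 1 at the first base of the element. Both windows held TTCTTGGAA, from 97 to 89 bases before the Hamp start and from 94 to 86 bases before the Hamp2 start. The 2 motifs did not overlap. Among 32851 RefSeq windows of the same length, 9.59% held GGCGCC and 7.02% held TTCNNNGAA. The windows of Tfr2, Smad6, Hfe and Bmp6 held neither motif. A match is only a run of letters, and its absence from a window says nothing about the factor.

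Values are linear MAS5 signals (the array maker's summary of a probe set, in arbitrary units). Ratios are log2 of the antagomir-122 signal over the mm-antagomir-122 signal. A floor was set at a mean signal of 238, the 60th percentile of probe sets, because the error of a MAS5 signal grows as the signal falls. Of the 16 probe sets, 14 were above this floor, and each of the 10 genes had at least 1 there. Across the array 10003 genes had a probe set above the floor, each represented by its brightest one, and their median log2 ratio was 0.00. Genes with a further probe set above the floor gave the only measure of error available, from how far its ratio lay from that of the brightest. The SD of that difference was divided by the square root of 2, to stand for the error of a single probe set's ratio. This SD was 0.28 on the log2 scale over 3860 genes. With the genes cut by signal into 3 groups of equal size it was 0.35 in the dim group, 0.30 in the middle group and 0.23 in the bright group, and it leaves out the spread between animals. Levels of different genes are not compared, since probe sets differ in their response.

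Hemojuvelin mRNA was higher in the antagomir-122 pool, and hepcidin mRNA was near the top of the array in both pools. Of the genes transcribed in response to BMP-SMAD signalling, Smad7 was 1.74-fold lower in the antagomir-122 pool, Id1 and Smad6 had log2 ratios of -0.54 and -0.49, short of 1.5-fold, and Hamp had 0.05. The upstream genes Hfe, Tfr2, Tmprss6 and Bmp6 were at most 1.22-fold apart on their brightest probe sets. Of the 10 genes, 1 (Hjv) was at least 1.5-fold higher, where 5.12% of the 10003 genes were. Another (Smad7) was at least 1.5-fold lower, where 2.62% were. The split of all genes past 1.5-fold depended on scaling. It was 512 higher and 262 lower as deposited, 279 and 615 after median centring, and 1693 and 63 when the arrays were scaled on their hybridization controls, which are spiked-in bacterial and phage transcripts. The median log2 ratio of the 10 genes was -0.13, with 3 above 0 and 7 below, where 50.3% of all genes were above and 49.6% below. At 2-fold, Hjv was higher (0.83% of all genes were) and 0 axis genes were lower (0.31% of all genes were).

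**Figure D1:**
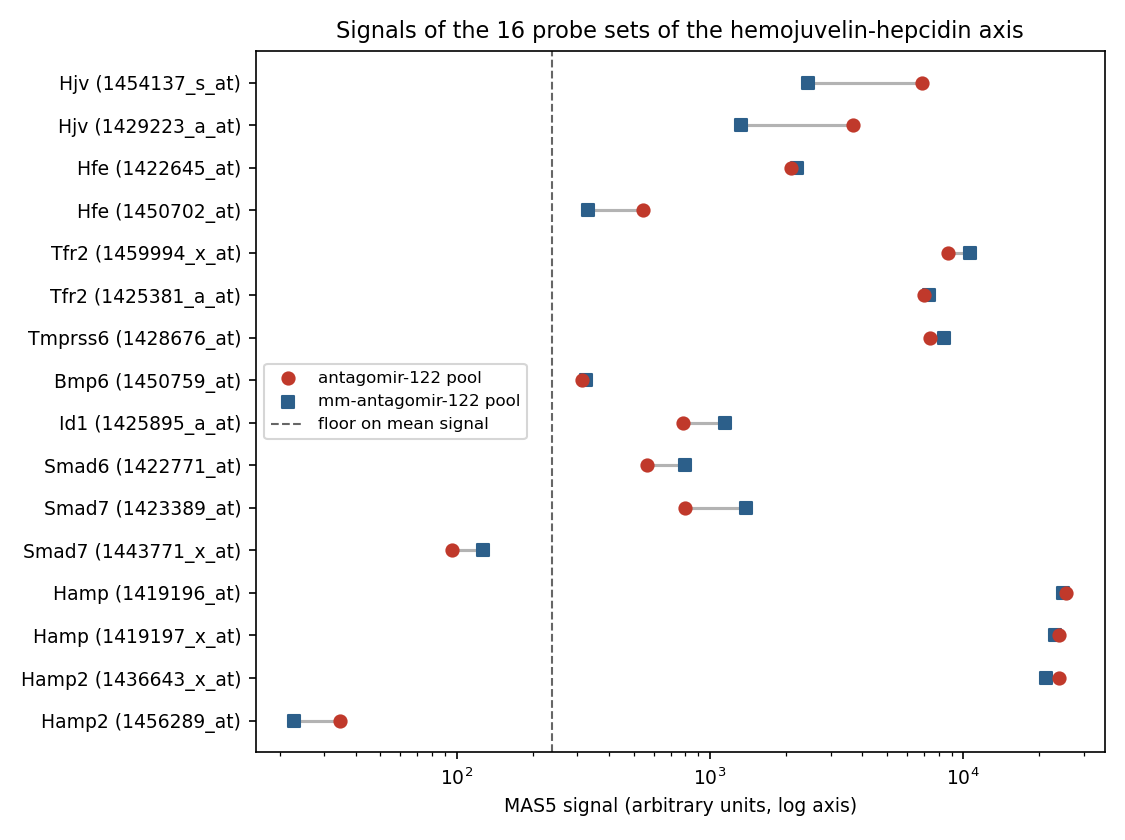
MAS5 signal (log axis, arbitrary units) of each of the 16 probe sets on the antagomir-122 array (red circles) and the mm-antagomir-122 array (blue squares), with a grey line joining each pair and a dashed line at the floor of 238. Each point is 1 array of a pool of 3 livers. The pairs of both Hjv probe sets are far apart, with antagomir-122 higher, the pairs of Id1, Smad6 and Smad7 are apart with antagomir-122 lower, and both Hamp pairs nearly coincide.

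Hjv had signals of 6843 in the antagomir-122 pool and 2448 in the mm-antagomir-122 pool on its brighter probe set, which carries the suffix _s, a 2.79-fold difference (log2 ratio 1.48). On the other probe set, with the suffix _a, the signals were 3674 in the antagomir-122 pool and 1325 in the mm-antagomir-122 pool, a 2.77-fold difference (log2 ratio 1.47). The 2 probe sets thus differed from each other by far less than 0.23, the SD for a single probe set's ratio among bright genes. Both read the same 2 pools, so their likeness says nothing of the spread between animals. By its brighter probe set, Hjv had the 18th highest ratio of 10003 genes. Among the 1000 probe sets nearest to it in mean signal, 0% lay as far from 0, and 0.2% did for the other probe set. The suffix _s marks probes shared by several transcripts, and _a marks those for transcripts of the same gene. Hjv had no probe set without a suffix.

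Among 3860 genes with at least 2 probe sets above the floor, Hjv had the 2nd highest mean log2 ratio, 1.48. The 5 genes nearest to it by that mean were Gpt (1.41), Car3 (1.61), Upk1b (1.33), Tmem161a (1.17) and Ndrg3 (1.11). With 2 arrays a pattern is a single ratio, so this likeness is one of size only. The probe sets of Hjv ran from 1.47 to 1.48, whereas those of Gpt ran from 0.08 to 2.74 and those of Car3 from -0.03 to 3.45. Those of Upk1b ran from 1.01 to 1.64, those of Tmem161a from 0.18 to 2.17 and those of Ndrg3 from 0.69 to 1.54.

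Hemojuvelin is also known to be abundant in skeletal muscle. All 8 markers of skeletal muscle (Acta1, Ckm, Myh4, Tnnt3, Tnnc2, Mb, Mylpf and Pvalb) had mean signals under the floor. Their brightest probe sets ran from 9.8 to 268 in the antagomir-122 pool and from 10.5 to 152 in the mm-antagomir-122 pool, and summed to 848 and 535 in these pools. On these probe sets Acta1 and Tnnc2 were lower in the antagomir-122 pool and the other muscle markers were higher. The part of muscle in the Hjv values was not tested. All 10 hepatocyte markers were above the floor, with a median log2 ratio of 0.00, and 6 of them were at 16000 or more on both arrays. Of these markers G6pc, a glucose-6-phosphatase subunit, had the ratio farthest from 0 (0.58), and Apob, Pck1 and Hnf4a had -0.10, -0.07 and -0.07.

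**Figure D2:**
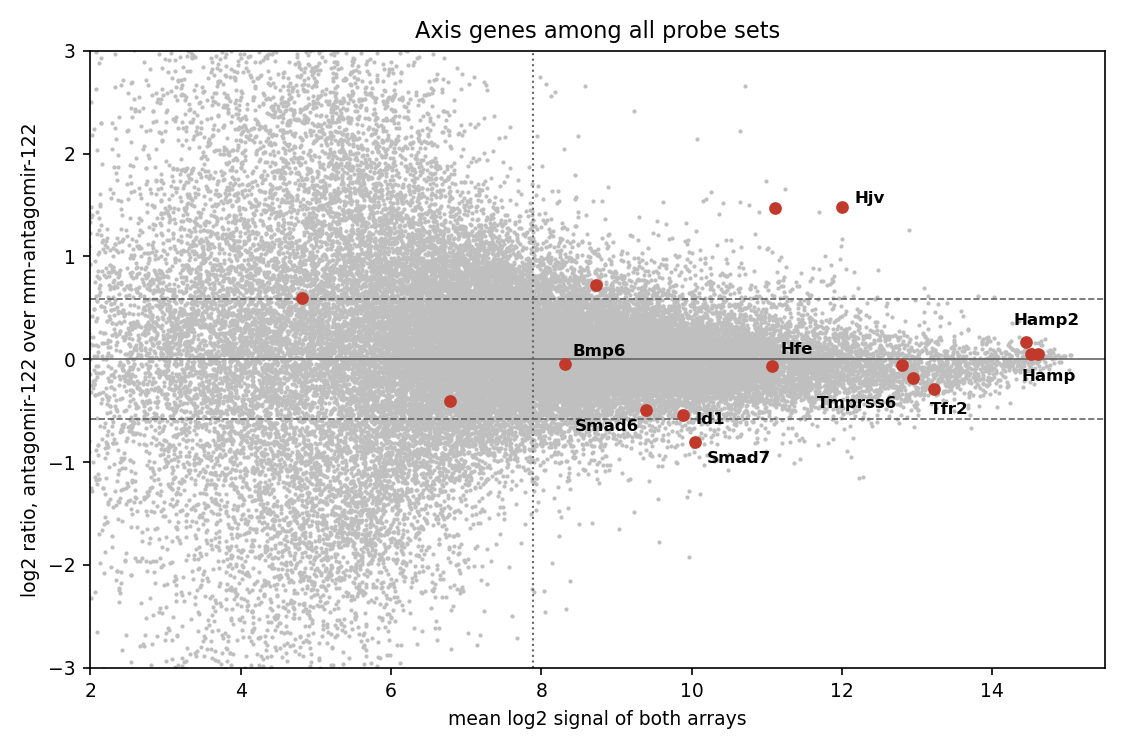
Log2 ratio of the antagomir-122 signal over the mm-antagomir-122 signal against the mean log2 signal of both arrays, for all probe sets other than controls (grey, some dim ones lying beyond the axis) and the 16 probe sets of the axis genes (red, with each gene's name at its brightest). Dashed lines mark 1.5-fold and the dotted line marks the floor. Both Hjv probe sets (1.47 and 1.48) lie above nearly all probe sets of like signal, and Smad7 (-0.80), Id1 (-0.54) and Smad6 (-0.49) lie on the lower side.

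The iron sensors and the hemojuvelin protease differed little between the pools. Hfe, an MHC-like protein that binds transferrin receptors, had signals of 2098 in the antagomir-122 pool and 2198 in the mm-antagomir-122 pool on its brighter probe set (log2 ratio -0.07). Its other probe set had 544 in the antagomir-122 pool and 329 in the mm-antagomir-122 pool, 1.65-fold higher (0.73). The Hfe probe sets therefore disagreed, and among the 1000 probe sets nearest to the dimmer one 3.4% were as high. Tfr2, the iron sensor of hepatocytes, had 8693 in the antagomir-122 pool and 10646 in the mm-antagomir-122 pool (-0.29) on a probe set with the suffix _x, which marks probes that can cross-hybridise. On the other, Tfr2 had 7010 in the antagomir-122 pool and 7297 in the mm-antagomir-122 pool (-0.06). Tmprss6, with a single probe set, had 7417 in the antagomir-122 pool and 8433 in the mm-antagomir-122 pool (-0.19). These ratios of Tfr2 and Tmprss6 were at most 1.22-fold from 1. Of the 1000 probe sets of like signal, 40.4% lay as far from 0 as Tmprss6, and 16.5% as far as the brighter Tfr2 probe set.

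Bmp6, the ligand that iron loading is known to induce, had signals of 312 in the antagomir-122 pool and 323 in the mm-antagomir-122 pool (-0.05), not far above the floor. Of the 1000 probe sets of like signal, 89% lay as far from 0. The other BMP ligands above the floor were Bmp2, also made by liver endothelium, with 922 in the antagomir-122 pool and 1101 in the mm-antagomir-122 pool (-0.26), Bmp5 (0.20) and Gdf2, which encodes BMP9 (0.07). None of these 3 was past 1.5-fold. Markers of liver endothelium, which makes Bmp6 and Bmp2, had a median of 0.07 over 9 genes, with 7 above 0. Their brightest probe sets summed to 18715 in the antagomir-122 pool and 17816 in the mm-antagomir-122 pool. Tek, an endothelial receptor kinase, was 1.66-fold lower (386 in the antagomir-122 pool and 641 in the mm-antagomir-122 pool). Kdr, Stab1 and Lyve1 had -0.31, 0.28 and 0.23, and Lyve1 had -0.11 on its other probe set. In bulk tissue, fewer cells of a type and less RNA per cell cannot be told apart.

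Of the axis genes that respond to BMP-SMAD signalling, Smad7, Id1 and Smad6 had ratios below 0 and Hamp, given further on, had 0.05. Smad7, an inhibitory SMAD that shuts off receptor signalling, had 798 in the antagomir-122 pool and 1392 in the mm-antagomir-122 pool, 1.74-fold lower (log2 ratio -0.80). Its other probe set carries the suffix _x and was under the floor on both arrays, at 96 in the antagomir-122 pool and 128 in the mm-antagomir-122 pool. Id1, which encodes an inhibitor of DNA binding and is a direct SMAD target, had 785 in the antagomir-122 pool and 1145 in the mm-antagomir-122 pool, 1.46-fold lower (-0.54). Smad6, the other inhibitory SMAD, had 566 in the antagomir-122 pool and 797 in the mm-antagomir-122 pool, 1.41-fold lower (-0.49). Id1 and Smad6 were thus short of 1.5-fold, and each rested on a single probe set.

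From the lowest ratio upwards, Smad7 ranked 91, Id1 335 and Smad6 458 of 10003 genes. At 1.4-fold all of Smad7, Id1 and Smad6 were lower, where 4.85% of all genes were. Among the 1000 probe sets nearest in signal, 1.1% were as low as Smad7, 3.5% as low as Id1 and 5.8% as low as Smad6. In either direction, 3.1% lay as far from 0 as Smad7, 7.8% as far as Id1 and 14.8% as far as Smad6. The ratios of all of these genes lay farther from 0 than the SD of 0.30 between probe sets of one gene in the middle signal group, where they lie. Spread between animals is not in that figure. The ratios of Smad7, Id1 and Smad6 stayed below 0 under each of the 5 scalings, at their nearest to 0 with -0.53, -0.27 and -0.22 when scaled on the hybridization controls. That scaling moved the median of all genes to 0.28, and relative to it the distances are as deposited.

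Other genes known as BMP-SMAD targets gave a mixed picture. Of 9 listed, 6 were above the floor, 5 with ratios below 0 and 1 above, with a median of -0.11. Across the array 49.6% of genes were below 0. Msx1, a homeobox gene, was 1.79-fold lower on a probe set with the suffix _s (631 in the antagomir-122 pool and 1129 in the mm-antagomir-122 pool). Its other probe set was under the floor, at 133 in the antagomir-122 pool and 118 in the mm-antagomir-122 pool. Gata2, a transcription factor gene, had a log2 ratio of 0.53. Id3, close kin of Id1, had 2282 in the antagomir-122 pool and 2471 in the mm-antagomir-122 pool (-0.11), so the Id genes were not alike in size. Id2 had -0.34 on its brightest probe set and 0.20 and 0.38 on the others. Id4, named after its values were seen, had -0.11, -0.52 and -0.32 on its 3 probe sets. Atoh8, another reported BMP target of liver also named after its value was seen, was under the floor, at 172 in the antagomir-122 pool and 207 in the mm-antagomir-122 pool. The other listed targets under the floor, Hey1 and Msx2, went the other way. On their brightest probe sets they had 155 and 113 in the antagomir-122 pool, against 80.2 and 58.7 in the mm-antagomir-122 pool.

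No receptor or SMAD transducer gene above the floor passed 1.5-fold on its brightest probe set. All 4 BMP receptor genes above the floor had ratios above 0 there, from 0.00 to 0.44. A dimmer probe set of Bmpr2 went further and is given under the other observations. Bmpr1a, a type I receptor, had 1022 in the antagomir-122 pool and 755 in the mm-antagomir-122 pool (0.44), and Bmpr2, Acvr2a and Acvr1 had 0.13, 0.11 and 0.00. Other probe sets of Bmpr1a above the floor had -0.02, -0.02 and 0.12. Of the SMAD transducers, 5 of 6 were above the floor, 4 with ratios below 0 and 1 above. Smad4, the common partner, had -0.44 on its brightest probe set and -0.26 and 0.20 on the others. Smad1 and Smad5, which carry BMP signals, had -0.22 and 0.28, and Smad3, which carries TGF-beta and activin signals, had -0.18.

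Genes listed as hemojuvelin partners or processing genes were not past 1.5-fold on their brightest probe sets either, with a median of 0.08 over 7 genes. That list also holds a co-receptor gene and a protease inhibitor gene. Neo1, the hemojuvelin-binding receptor neogenin, had 677 in the antagomir-122 pool and 626 in the mm-antagomir-122 pool (0.11) on an _x probe set. On an _s probe set Neo1 had 580 in the antagomir-122 pool and 315 in the mm-antagomir-122 pool (0.88), so its size is not settled. Pcsk6, a proprotein convertase, had 0.22, the co-receptor gene Eng had -0.28 and the protease inhibitor gene Spint2 had 0.10. On its other probe set Eng had 0.13. The BMP antagonists and SMAD inhibitors had a median of -0.02 over 9 genes, with 0 past 1.5-fold. Bambi, a decoy receptor, had -0.39, the SMAD corepressor gene Skil had 0.26, the ubiquitin ligase gene Smurf1 had -0.24 and the BMP-binding protein gene Twsg1 had 0.15. Over all 6 of these BMP lists, 34 of 53 genes were above the floor, 17 with ratios above 0 and 17 below. Msx1 alone was past 1.5-fold (2.94%, against 7.74% of all genes in either direction).

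**Figure D3:**
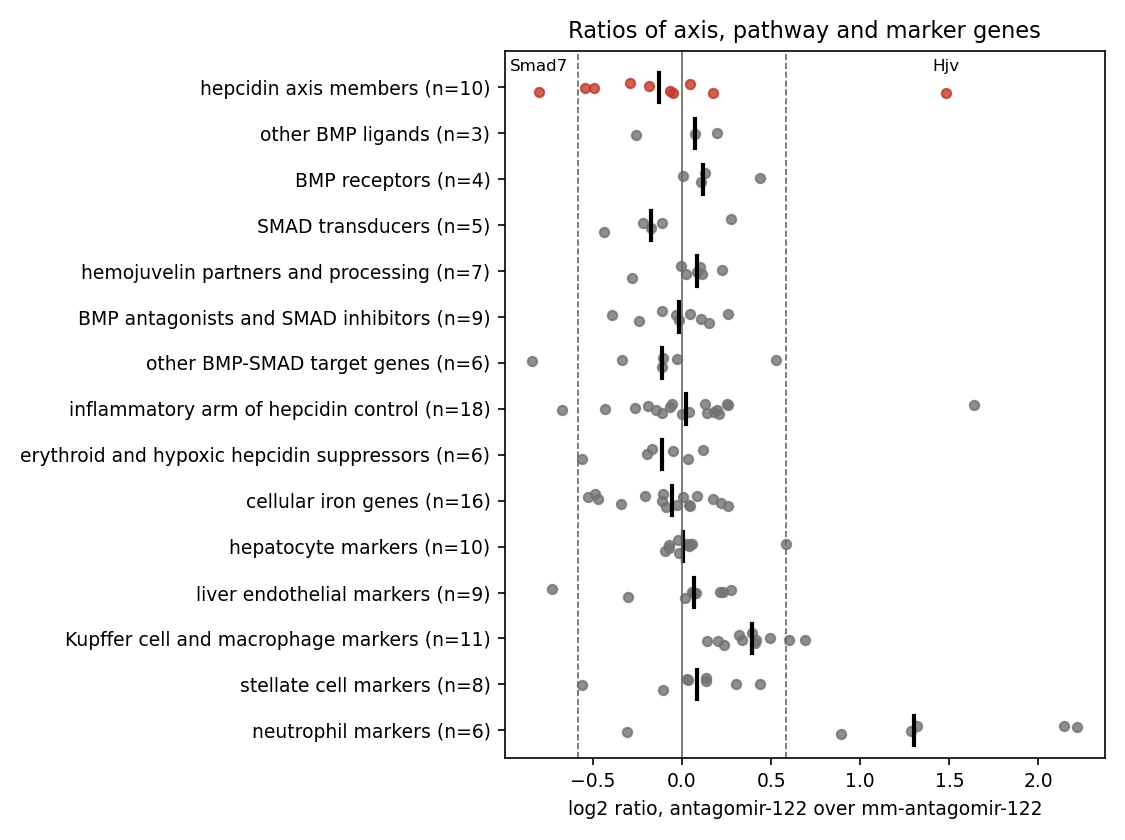
Log2 ratio of the antagomir-122 signal over the mm-antagomir-122 signal for each gene above the floor, by list, on its brightest probe set. Points are genes, black bars are medians, dashed lines mark 1.5-fold, and the axis genes are in red. Hjv (1.48) stands apart to the right and Smad7 (-0.80) to the left of the axis genes, while medians of the BMP lists run from -0.18 to 0.12.

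Hepcidin itself lay near the top of the signal range, with no difference to be read between the pools. Hamp had signals of 25486 in the antagomir-122 pool and 24658 in the mm-antagomir-122 pool on its brighter probe set (log2 ratio 0.05). On the _x probe set it had 23825 in the antagomir-122 pool and 22945 in the mm-antagomir-122 pool (0.05). The brighter one ranked 53rd in the antagomir-122 pool and 63rd in the mm-antagomir-122 pool among 45037 probe sets other than controls. The highest signal on the arrays was 34477 for antagomir-122 and 34506 for mm-antagomir-122. Over the 1000 probe sets nearest to Hamp in signal the SD of the log2 ratio was 0.18, against 0.36 over the 1000 nearest to Smad7. Only 255 probe sets reached 16000 in the antagomir-122 pool and 280 in the mm-antagomir-122 pool. Most of the 1000 nearest to Hamp were thus dimmer than it, and the spread at its own level was not measured. Near the top of the range a difference in hepcidin mRNA can be hidden, and its size cannot be bounded from these arrays.

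Hamp2, the second mouse hepcidin gene, was read by 2 probe sets, 1 of them above the floor. The _x probe set had 23868 in the antagomir-122 pool and 21188 in the mm-antagomir-122 pool (0.17). The probe set without a suffix had 34.7 in the antagomir-122 pool and 22.9 in the mm-antagomir-122 pool, under the floor on both arrays, so no fold is given. Hamp and Hamp2 are known as closely similar copies, though their transcripts were not compared here, and the _x suffix marks probes that can cross-hybridise. The ratio of Hamp2 is therefore uncertain, also where it enters the counts and median over the axis genes. Of 5 exocrine pancreas markers with a probe set, Cela1 was above the floor, at 1098 in the antagomir-122 pool and 990 in the mm-antagomir-122 pool (0.15), and Cel, Cpa1, Ctrb1 and Prss2 were under it. Their part in the hepcidin values was not tested.

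The inflammatory input to hepcidin was measured by 19 listed genes, of which 18 were above the floor, with a median of 0.02. Of these, 7 were at 16000 or more on both arrays, toward the top of the range, where a difference can be hidden as for Hamp. Saa1 and Saa2, serum amyloid A genes of the acute phase chosen after their values were seen, had 28364 and 19077 on their brightest probe sets in the antagomir-122 pool, against 28356 and 21806 in the mm-antagomir-122 pool. Socs3, a STAT3 target and feedback inhibitor, had 590 in the antagomir-122 pool and 795 in the mm-antagomir-122 pool (-0.43), and its other 2 probe sets had -0.38 and -0.75. Orm2, an acute phase gene that belongs to a family of near-identical copies, was 1.59-fold lower (10728 in the antagomir-122 pool and 17090 in the mm-antagomir-122 pool), and Orm1 had -0.26. Inhbb, whose product activin B is known to induce hepcidin in inflamed mice, had 529 in the antagomir-122 pool and 170 in the mm-antagomir-122 pool. With its mm-antagomir-122 signal under the floor and set to it, Inhbb was 2.22-fold higher. The floor is a percentile of signal and not a limit of detection, so such a fold is no strict bound. The other Inhbb probe set had a mean under the floor, at 185 in the antagomir-122 pool and 106 in the mm-antagomir-122 pool. Il6, chosen after its value was seen, was under the floor, at 46.6 in the antagomir-122 pool and 34.9 in the mm-antagomir-122 pool.

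Most markers of neutrophils and macrophages were on the higher side in the antagomir-122 pool. Of 7 neutrophil markers, 6 were above the floor and 5 were at least 1.5-fold higher (median log2 ratio 1.30, or 1.03 with signals under the floor set to it). These were S100a8 (4.66-fold), S100a9 (4.42-fold), Ngp (2.49-fold), Mpo (1.68-fold) and Ltf (1.54-fold). For Mpo and Ltf the mm-antagomir-122 signal was under the floor and was set to it. Elane, a neutrophil protease gene named after its value was seen, went the other way, with 261 in the antagomir-122 pool and 323 in the mm-antagomir-122 pool (-0.31), and Camp was under the floor. The brightest probe sets of all 7 markers summed to 8026 in the antagomir-122 pool and 2461 in the mm-antagomir-122 pool. Each of the 11 markers of Kupffer cells and macrophages had a ratio above 0, with a median of 0.39 and sums of 62480 in the antagomir-122 pool and 47656 in the mm-antagomir-122 pool. C1qc and Adgre1 were 1.61-fold and 1.52-fold higher, and Cd68 and Csf1r had 0.50 and 0.42. The part of these cells in the values of Inhbb, Socs3 and the axis genes was not tested. Stellate cell markers had a median of 0.08 over 8 genes, with Col1a1, Reln and Rgs5 at 0.44, 0.30 and 0.14. Des was 1.30-fold lower with its antagomir-122 signal, which was under the floor, set to it. On its other probe set Col1a1 had 566 in the antagomir-122 pool and 313 in the mm-antagomir-122 pool (0.86), which is past 1.5-fold.

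Of 8 genes listed under erythroid and hypoxic suppression of hepcidin, 6 had a probe set, and all 6 were above the floor. These were Hif1a, Epas1, Arnt, Pdgfa, Pdgfb and Vegfa. They are hypoxia and growth factor genes, not all of them suppressors themselves, and the erythroid side was not covered. Their median was -0.11, and none passed 1.5-fold on its brightest probe set. Vegfa, a hypoxia-responsive growth factor gene, had 1409 in the antagomir-122 pool and 2077 in the mm-antagomir-122 pool (-0.56). Its other probe set had 531 in the antagomir-122 pool and 954 in the mm-antagomir-122 pool (-0.84), which is past 1.5-fold. Epas1, which encodes HIF-2alpha, had -0.20, Arnt, its partner, had -0.17 and Pdgfb had 0.12. On other probe sets above the floor Epas1 had -0.52, and Arnt had 0.25 and -0.37. Erythroid markers were covered too thinly for a median, with Alas2, the erythroid heme synthesis enzyme, at 0.08.

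Genes of cellular iron uptake, storage and export had ratios on both sides of 0. Of 20 listed, 16 were above the floor, 7 with ratios above 0 and 9 below, with a median of -0.06 and 0 past 1.5-fold on their brightest probe sets. Tfrc, the transferrin receptor of iron uptake, had 1288 in the antagomir-122 pool and 1807 in the mm-antagomir-122 pool (-0.49) on its brightest probe set, but 0.23 on the other above the floor. Steap3, a ferric reductase gene, had -0.53, and its 2 other probe sets had -0.22 and -0.27. Slc11a2, the importer DMT1, had -0.47, and Pcbp1, which encodes a carrier of iron to ferritin, had -0.34. Slc40a1, which encodes ferroportin and was chosen after its value was seen, had 10470 in the antagomir-122 pool and 9276 in the mm-antagomir-122 pool (0.17). The housekeeping genes had a median of 0.03 over 11 genes, with Polr2a at 0.56, Pgk1 at -0.09, Tbp at -0.08 and Gusb at 0.07.

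**Figure D4:**
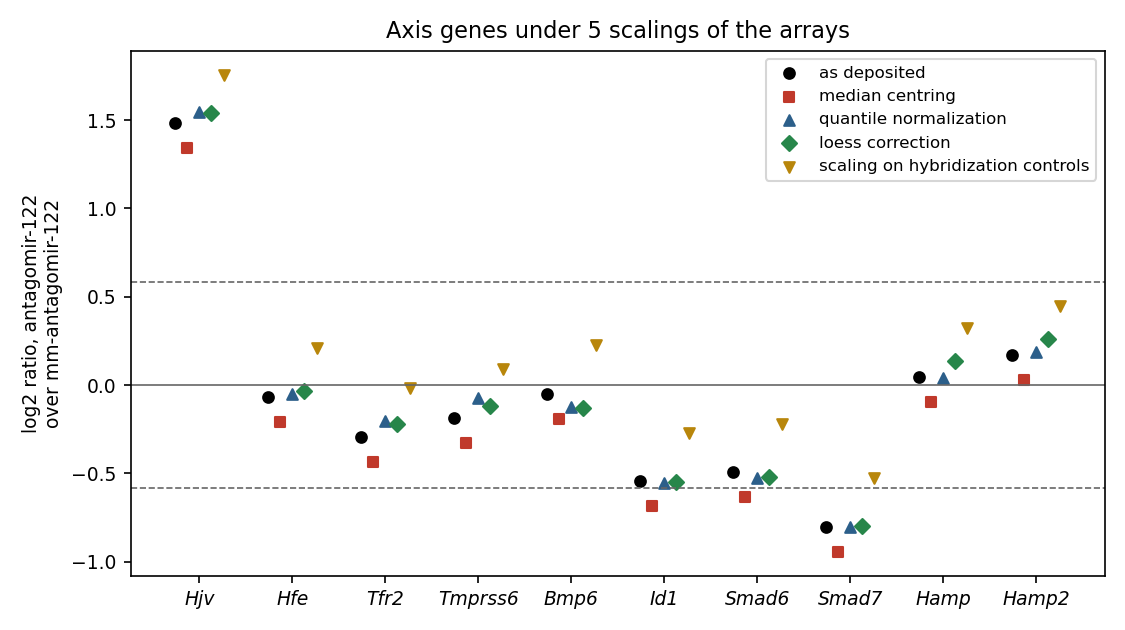
Log2 ratio of the antagomir-122 signal over the mm-antagomir-122 signal for each axis gene on its brightest probe set, under 5 scalings of the arrays (symbols). The solid line is at 0 and dashed lines mark 1.5-fold. Hjv lies between 1.34 and 1.76 and Smad7 between -0.94 and -0.53, while Hfe, Tmprss6, Bmp6 and Hamp have symbols on both sides of 0.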

How the data were processed

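The authors hybridised biotin-labelled cRNA from 1 pool of 3 livers per group to single-colour arrays. Linear signal intensities were deposited, and per the submitters' processing notes their tool was MAS5; no version or detection calls are given in the sources used here. The 2% trimmed mean was 500.0 on both arrays. Samples were grouped by title.

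Gene names came from the platform annotation, updated through gene identifiers in RefSeq's GRCm38.p6 table (34741 of 34945 single-gene probe sets found). Ratios used no pseudocount and no further scaling. The members and the 18 other gene lists were chosen with earlier results of these data known. All members were named, with, from each other list, genes past 1.5-fold and up to 4 with the largest ratios on the brightest probe set above the floor. The 5 genes nearest Hjv were taken from genes with several probe sets. Promoters were aligned with Biopython 1.88. Values were computed with Python 3.11.15, NumPy 2.4.6, pandas 2.3.3, SciPy 1.17.1 and statsmodels 0.14.6. Simulated ratios served only to check the recovery of planted fold changes and of the spread between probe sets. Shares, ranks, scalings and promoter matches were not checked that way.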

Additional observations from a re-analysis of the deposited data

How the results depend on the processing

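Alternatives were median centring, quantile normalization, loess correction (span 0.3), scaling on 18 hybridization controls (median log2 ratio -0.27), a pseudocount of 16, means over probe sets, leaving out suffixed probe sets, floors at the 40th and 80th percentiles, signals under the floor set to it, and thresholds of 1.4-fold and 2-fold. Leaving out the suffixes _s and _x alone was chosen after seeing the data. The Hjv ratio ran from 1.34 to 1.76 over 11 alternatives and could not be had without all suffixes, which left 0 axis genes 1.5-fold higher. The number of axis genes past the threshold on the lower side was 3 after median centring and at 1.4-fold, and 0 when scaled on the hybridization controls and at 2-fold. Median centring moved the median of all genes to -0.14. Smad7 ran from -0.94 to -0.53, Id1 from -0.69 to -0.27, Smad6 from -0.64 to -0.22 and Tfr2 from -0.43 to -0.02. Hamp ran from -0.09 to 0.32, Hamp2 from 0.03 to 0.45, Tmprss6 from -0.33 to 0.09 and Bmp6 from -0.19 to 0.23, with Hamp below 0 only after median centring and Tmprss6 and Bmp6 above 0 only when scaled on the hybridization controls. These scalings shift every gene alike, and quantile and loess correction kept the signs as deposited. Hfe was above 0 when scaled on the hybridization controls (0.21), and was at 0.33 as the mean of its probe sets. The median of the 10 axis genes turned to 0.15 when scaled on the hybridization controls. No paired analysis was possible because each group has 1 array.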

Other observations

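Some genes of the route had probe sets that went apart, and the following were chosen after their values were seen. Slc11a2 had 628 in the antagomir-122 pool and 237 in the mm-antagomir-122 pool on a further probe set. That was 2.64-fold higher with the mm-antagomir-122 signal set to the floor. The other 2 Slc11a2 probe sets with mean signals above the floor had -0.47 and -0.52. Neo1 had 304 in the antagomir-122 pool and 49.3 in the mm-antagomir-122 pool on a probe set whose mean was under the floor. Bmpr2 had 435 in the antagomir-122 pool and 214 in the mm-antagomir-122 pool on a dim probe set, against a log2 ratio of 0.13 on its brightest. The dim one was 1.82-fold higher with the mm-antagomir-122 signal set to the floor. Twsg1 had 368 in the antagomir-122 pool and 789 in the mm-antagomir-122 pool on one probe set (-1.10), and 0.15 and -0.11 on 2 others.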
